A study of Rattus norvegicus with 82 samples.

Results

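Interferon-stimulated genes, a group of 40 listed genes whose transcription is raised by interferons, were followed in rat cardiomyocytes from both chambers, the right ventricle (RV) and left ventricle (LV). They were chosen by symbol, and 36 of the 40 were found among the 17337 genes of the table. *Ifi44l*, *Herc6*, *Xaf1* and *Nlrc5* are not analysed here. *Zbp1*, with 275 raw counts over all 82 libraries and at most 15 in one, was too low to be tested, which left 35 members among the 11954 genes tested. Ordered by role, these were 3 sensors of viral nucleic acid, 6 transcriptional regulators, 16 antiviral effectors, 5 genes of the ISG15 and ubiquitin system, 2 ADP-ribosyltransferases and 3 genes of class I antigen presentation.

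The study followed chronic pressure load of each ventricle in 41 rats, all offspring of Wistar Kyoto mothers and Lewis fathers. A clip around the pulmonary artery (PAB) loaded the RV, a clip around the aorta (AOB) loaded the LV, and sham-operated animals served as controls. Hearts were digested with collagenase, the ventricles were parted and cardiomyocytes were enriched by low-speed spins, and the cells of both ventricles were sequenced separately after removal of ribosomal RNA, giving 12 groups. Group names end in H for compensated hypertrophy and in F for decompensated failure. Sham-H (3 males, 4 females), AOB-H (2 males, 4 females) and PAB-H animals (4 males, 2 females) were 11 weeks old by their labels, 7 weeks after surgery. Sham-F (4 males, 5 females) and AOB-F animals (4 males, 3 females) were 31 weeks old, 26 weeks after surgery, and PAB-F animals (4 males, 2 females) were 28 weeks old, 22 weeks after surgery. The study's methods give other ages at harvest, so the ages are those of the labels only. PAB-F animals were thus younger than the Sham-F animals they are compared with. The clip did not constrict when it was placed and became tight as the animal grew. Each library is 1 ventricle of 1 animal, and replicates of a group are different animals.

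Interferons bind receptors at the cell surface whose kinases activate STAT transcription factors. Type I interferons act mainly through a complex that contains STAT2 and IRF9 and binds the interferon-stimulated response element (ISRE), and interferon gamma acts mainly at gamma-activated sites (GAS). The induced proteins sense viral nucleic acid, block steps of viral replication, modify proteins with ISG15 or ubiquitin and load peptides onto class I molecules, and in the heart endothelial cells, fibroblasts and macrophages as well as cardiomyocytes can respond.

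The ISRE carries the letters GAAANNGAAA, which a search of RefSeq promoters (build GRCr8, 250 bases before to 50 bases after the gene's start, both strands) found in 19 of the 29 listed members with an entry, or 65.5%, against 1312 of all 33469 promoters, or 3.92%. The GAS-type letters TTCNNNGAA were found in 6 of the 29, or 20.7%, against 8.87% of all promoters. Overlap between the motifs was not looked for, and a match is a description of the letters, not a site shown to be bound. The sites of members on which the results below turn are shown here, read along the gene's own strand, with the ISRE-type letters (or their reverse complement, TTTCNNTTTC) in capitals.
*Rsad2*, chr6:48788233-48788292, minus strand: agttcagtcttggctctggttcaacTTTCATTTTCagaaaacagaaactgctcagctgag
*Gbp2*, chr2:234005671-234005726, plus strand: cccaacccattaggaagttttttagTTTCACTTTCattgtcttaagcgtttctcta
*Ifih1*, chr3:67683993-67684052, minus strand: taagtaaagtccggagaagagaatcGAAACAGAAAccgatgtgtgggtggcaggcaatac
*Parp14*, chr11:78408033-78408092, plus strand: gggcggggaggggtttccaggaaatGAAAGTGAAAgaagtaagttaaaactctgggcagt
*Bst2*, chr16:18255061-18255120, minus strand: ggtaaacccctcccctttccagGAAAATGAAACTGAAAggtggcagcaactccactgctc
*Tapbp*, chr20:4967878-4967925, minus strand: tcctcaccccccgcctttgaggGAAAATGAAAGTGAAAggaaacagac
*Oas1a*, chr12:41330403-41330462, plus strand: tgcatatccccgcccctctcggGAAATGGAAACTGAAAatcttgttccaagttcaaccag
*Eif2ak2*, chr6:21941113-21941153, plus strand: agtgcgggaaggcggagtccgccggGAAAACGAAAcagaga
In *Bst2*, *Tapbp* and *Oas1a* overlapping matches run together into 16 bases. The letters began 147 bases before the start in *Rsad2*, 131 in *Bst2*, 76 in *Parp14*, 59 in *Ifih1*, 41 in *Oas1a*, 31 in *Gbp2*, 26 in *Tapbp* and 16 in *Eif2ak2*. The promoters of *Irf1*, *Irf9*, *Stat2*, *Ifi35*, *Mx1*, *Oasl*, *Cmpk2*, *Herc6*, *Trim25* and *Parp9* held no such letters in this window.

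The libraries held between 6675287 and 19665439 counts, and the members took between 0.0774% and 0.285% of them (median 0.113%). Per length, on the FPKM scale, *B2m*, the light chain of class I molecules, had the highest level with 142 ± 29 (SD, n = 82), followed by *Tapbp* (tapasin) at 58.1, *Bst2* (tetherin, which holds budding virus at the membrane) at 42.4 and the RNA-editing enzyme *Adar* at 39.5. *Irf7*, the factor that drives interferon alpha genes, reached 24.9 FPKM and *Stat2* 14.6 FPKM. *Rsad2*, *Mx1* and *Ifit1* were low, with 3.72, 3.35 and 1.65 FPKM. Genes of near-identical sequence, such as those of the *Ifit*, *Oas*, *Mx* and *Gbp* families, and the neighbours *Parp9* and *Dtx3l* may have shared or lost reads in the counting, so their values are uncertain to that extent.

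The defining markers of ventricular cardiomyocytes were present in every library, with 9 genes summing to between 53924 and 156064 CPM (counts scaled to the same total in each library). Markers of other cells were present as well, and the sums ran from 719 to 4495 CPM for 8 endothelial genes, from 162 to 2617 CPM for 9 fibroblast genes and from 16.7 to 292 CPM for 9 macrophage genes. In such bulk libraries fewer cells of a type and less RNA per cell cannot be told apart. LV AOB-H replicate 6, the shallowest library, stood apart. It held 72477 CPM of cardiomyocyte markers against 121937 to 130234 CPM in the other libraries of its group, 4383 CPM of endothelial markers against 1408 to 1782 CPM and 1202 CPM of fibroblast markers against 289 to 528 CPM. Values without it are therefore given beside the banding comparisons and beside the median and score correlations, but not beside the correlations of single genes. The ventricle and age counts were the same without it, 15 in Sham-H and 26 in Sham-F between the ventricles, 16 with age in the LV, 0 in the RV and 11 for the difference. RV PAB-H replicate 2 also stood apart, with 86843 CPM of cardiomyocyte markers, 2617 CPM of fibroblast markers, 2052 CPM of endothelial markers and 165 CPM of macrophage markers, each the extreme of its group.

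A score, the mean log2 CPM of the 35 tested members, summarised each library. It averaged 3.70 ± 0.11 (SD, n = 7) in RV Sham-H and 4.13 ± 0.21 (SD, n = 7) in LV Sham-H, and 3.61 ± 0.21 (SD, n = 9) in RV Sham-F and 4.19 ± 0.31 (SD, n = 9) in LV Sham-F. In PAB-H it was 4.22 ± 0.44 (SD, n = 6) in the RV and 4.39 ± 0.15 (SD, n = 6) in the LV. In PAB-F it was 4.0 ± 0.24 (SD, n = 6) in the RV and 4.22 ± 0.21 (SD, n = 6) in the LV. LV scores were the higher ones in the sham groups at both stages, and the banded groups with the widest spread were RV PAB-H, LV AOB-H and LV AOB-F. In AOB-H the RV score was 3.75 ± 0.28 (SD, n = 6) and the LV score 4.55 ± 0.45 (SD, n = 6). The LV AOB-H score was 5.43 in replicate 6 and 4.20 to 4.57 in the other libraries, so the wide spread there rested on replicate 6. In AOB-F the RV score was 3.56 ± 0.24 (SD, n = 7) and the LV score 4.23 ± 0.51 (SD, n = 7).

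**Figure D1:**
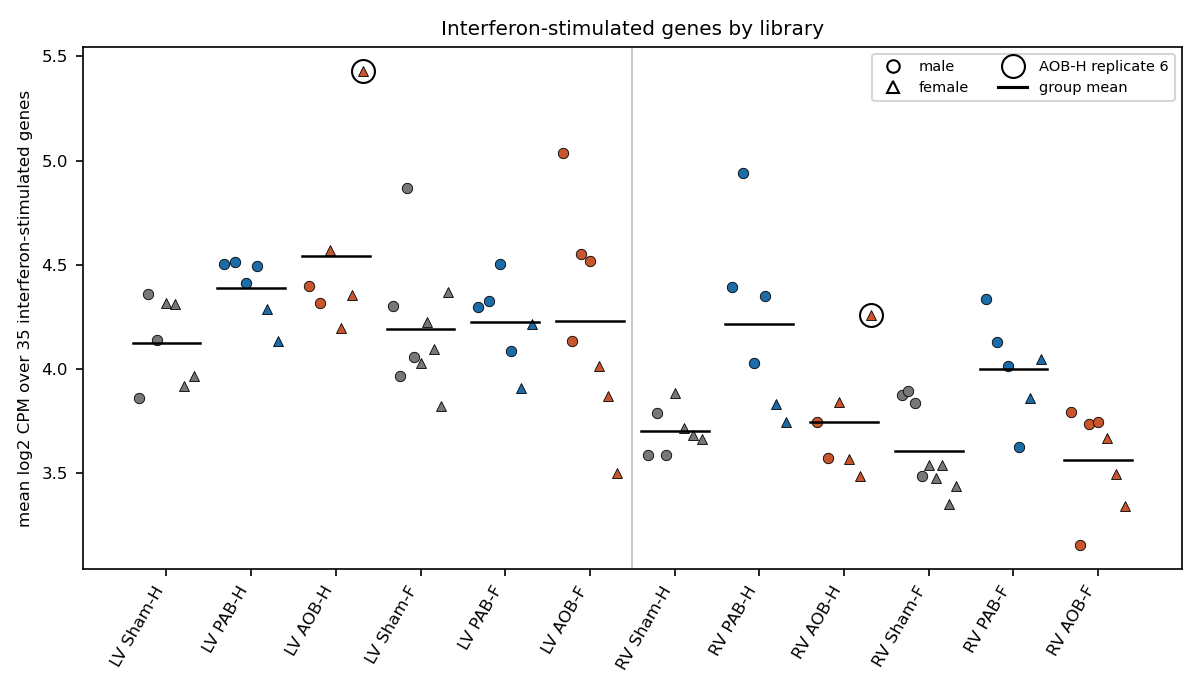
Mean log2 CPM of the 35 tested interferon-stimulated genes in each of the 82 libraries, by group, with circles for males, triangles for females and a bar at the group mean. Grey marks sham, blue PAB and orange AOB, and the rings mark the libraries of AOB-H replicate 6, whose LV library at 5.43 is the highest of all.

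Upon PAB, the RV at the compensated stage showed higher levels of several antiviral effectors. In RV PAB-H, 7 of the 35 members rose against RV Sham-H and 0 fell. A gene is called here at a Benjamini-Hochberg adjusted p under 0.05 in edgeR's quasi-likelihood test, and of all genes tested 4.5% were called and 3.91% were called higher. The 7 were *Rsad2*, *Mx1*, *Cmpk2*, *Rtp4* and *Gbp2* among the 16 effectors, the ADP-ribosyltransferase *Parp14* and the sensor *Ifih1* (MDA5). The median log2 fold change was 0.60 over the members and 0.004 over all genes tested, and 33 of the 35 values were above 0. None of the 6 regulators, 5 ISG15 and ubiquitin genes or 3 class I genes passed the test. Their median log2 fold changes were 0.34, 0.34 and 0.28. The 7 calls are too few to show a pattern by role.

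*Rsad2*, which encodes viperin, an enzyme that makes a chain-terminating nucleotide, lay between 92.6 and 362 normalized counts (raw counts brought to a common effective library size of 13279120) in RV PAB-H (median 239) and between 69.9 and 103 in RV Sham-H (median 88.0). All but replicate 6, the lowest, lay above every sham library. Its log2 fold change was 1.33 (standard error 0.31, edgeR adjusted p = 0.00962). *Cmpk2*, a mitochondrial nucleotide kinase whose gene neighbours *Rsad2*, lay between 60.6 and 207 (median 145) against 49.5 to 86.4 (median 71.8), again with 5 of 6 libraries above every sham, and had a log2 fold change of 0.95 (standard error 0.27, edgeR adjusted p = 0.0274). *Mx1*, a dynamin-like GTPase that traps viral ribonucleoproteins, ranged from 109 to 531 (median 211) against 51.3 to 160 (median 96.1). The libraries overlapped, with 4 of 6 above every sham, and the log2 fold change was 1.29 (standard error 0.35, edgeR adjusted p = 0.0227).

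*Gbp2*, a guanylate-binding GTPase of the interferon gamma response, ranged from 76.6 to 395 normalized counts in RV PAB-H (median 192) against 86.8 to 127 in RV Sham-H (median 108), a log2 fold change of 0.94 (standard error 0.29, edgeR adjusted p = 0.0408). Here 5 libraries lay above and 1 below all shams. *Parp14* ranged from 315 to 1151 (median 585) against 267 to 385 (median 308), a log2 fold change of 0.90 (standard error 0.26, edgeR adjusted p = 0.0346). *Ifih1* ranged from 207 to 549 (median 281) against 153 to 239 (median 195), with a log2 change of 0.69 (standard error 0.22, edgeR adjusted p = 0.0462). *Rtp4*, a receptor transporter protein induced by interferon, ranged from 51.9 to 252 (median 91.3) against 49.5 to 66.5 (median 54.9), with a log2 change of 0.97 (standard error 0.29, edgeR adjusted p = 0.0372). In these the upper part of the banded group lay above the shams and the lower part among them. Over the 35 members, the libraries of both groups did not overlap in 1 member, against 3.24% of all genes.

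The called genes rested largely on a single library. RV PAB-H replicate 2 was the highest of its group in 33 of the 35 members and the highest of all RV libraries in 27, and without it 0 members were called, with log2 fold changes of 1.13 for *Rsad2* (edgeR adjusted p = 0.135) and 0.89 for *Mx1* (edgeR adjusted p = 0.367). The count was 2 without RV Sham-H replicate 3 or 7, 3 without RV PAB-H replicate 1 or RV Sham-H replicate 5 or 6, and 4 without RV PAB-H replicate 4 or RV Sham-H replicate 1 or 2. It was 13 without RV PAB-H replicate 5, 16 without RV PAB-H replicate 6, and 11 of 36 tested, the 7 included, without LV AOB-H replicate 6, where 6.5% of all genes were called. The other counts with a library left out are given without their share over all genes. They show only how the calls depend on that library. The 2 PAB-H libraries whose omission raised the count are those of the females. Fibroblast markers moved with the members, as 8 of 8 tested rose (median log2 fold change 1.33), together with 1 of 8 endothelial and 1 of 7 mural markers and 0 of 9 macrophage markers (median 0.93). The summed levels in RV PAB-H and RV Sham-H were 377 to 2617 against 245 to 470 CPM for fibroblasts, 973 to 2052 against 850 to 1168 CPM for endothelial cells and 37.8 to 165 against 31.6 to 66.2 CPM for macrophages. Their part in the result was not tested.

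**Figure D2:**
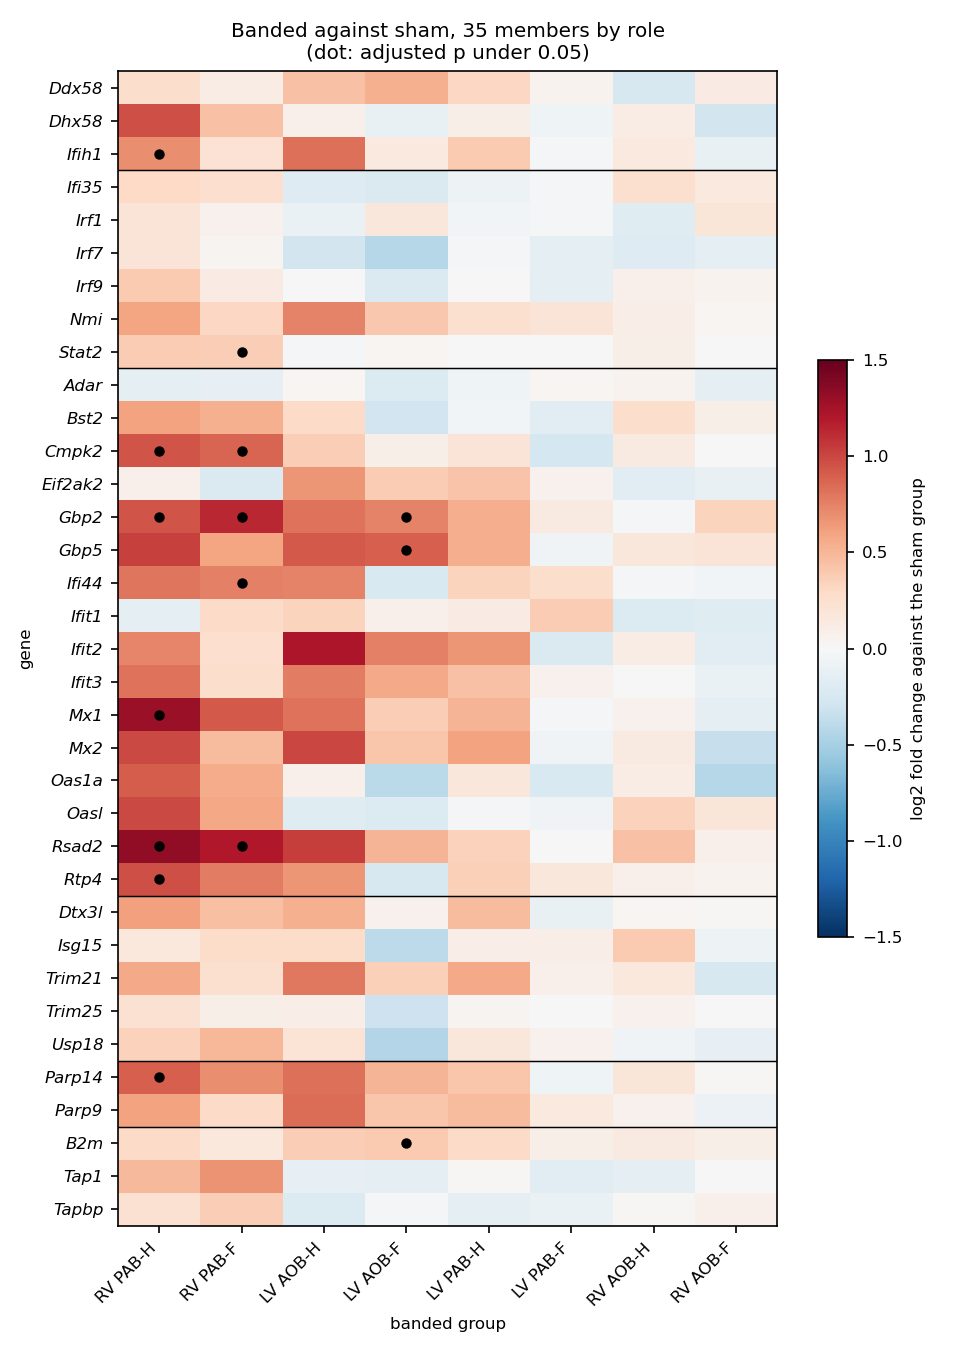
Log2 fold change of each of the 35 members (rows, by role) in the 8 banded groups (columns) against the sham group of the same stage and ventricle, with a dot where the edgeR adjusted p was under 0.05. Dots stand only in RV PAB-H (7), RV PAB-F (5) and LV AOB-F (3).

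In the failing RV most of the 5 called members were effectors, which are 16 of the 35 tested, too few calls to show a pattern by role. In RV PAB-F, 5 of the 35 members rose against RV Sham-F and 0 fell, against 11.1% of all genes called and 7.66% called higher. These were the effectors *Gbp2*, *Rsad2*, *Cmpk2* and *Ifi44* and the regulator *Stat2*. The median log2 fold change was 0.36 over the members and 0.016 over all genes, with 33 of 35 values above 0.

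*Rsad2* lay between 120 and 274 normalized counts in RV PAB-F (median 163) and between 50.7 and 117 in RV Sham-F (median 74.3). Every banded library lay above every sham. The log2 fold change was 1.21 (standard error 0.29, edgeR adjusted p = 0.00389). *Cmpk2* did not overlap either, with 86.2 to 150 (median 110) against 41.4 to 79.2 (median 59.5), and its log2 fold change was 0.88 (standard error 0.25, edgeR adjusted p = 0.0166). In all, 3 members did not overlap between the groups, against 2.71% of all genes.

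*Gbp2* ranged from 124 to 350 normalized counts (median 159) against 52.9 to 140 (median 82.0), a log2 fold change of 1.13 (standard error 0.27, edgeR adjusted p = 0.0032). *Ifi44* ranged from 110 to 300 (median 203) against 81.6 to 169 (median 101), with a log2 change of 0.75 (standard error 0.24, edgeR adjusted p = 0.0327). *Stat2*, the subunit of the type I complex that carries its activation domain, ranged from 580 to 834 (median 619) against 434 to 598 (median 506), with a log2 change of 0.36 (standard error 0.12, edgeR adjusted p = 0.0352). These groups overlapped at their edges.

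The call of *Rsad2* held whichever of the 15 libraries was left out. The count of members was 2 without RV PAB-F replicate 1 or 2, 3 without RV Sham-F replicate 4, 5, 7, 8 or 9, and 8 without RV Sham-F replicate 3 or RV PAB-F replicate 4. Those counts are given without their share over all genes. Without LV AOB-H replicate 6 the count was 8 of 36 tested, the 5 included, and 13.3% of all genes were called. Markers of other cells rose too, 4 of 8 for fibroblasts, 3 of 9 for macrophages, 2 of 8 for endothelial cells and 2 of 7 for mural cells. The fibroblast sum was 265 to 1740 against 162 to 504 CPM. The macrophage sum was 24 to 169 against 16.7 to 48.7 CPM and the endothelial sum 981 to 1810 against 719 to 1141 CPM. RV PAB-F replicate 1 held the top of each of these sums, with fibroblast sums of 265 to 753 CPM in the other libraries. It also had the lowest cardiomyocyte sum of its group, 84531 CPM, and was the highest of its group in 19 of the 35 members. The part of these cells was not tested.

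**Figure D3:**
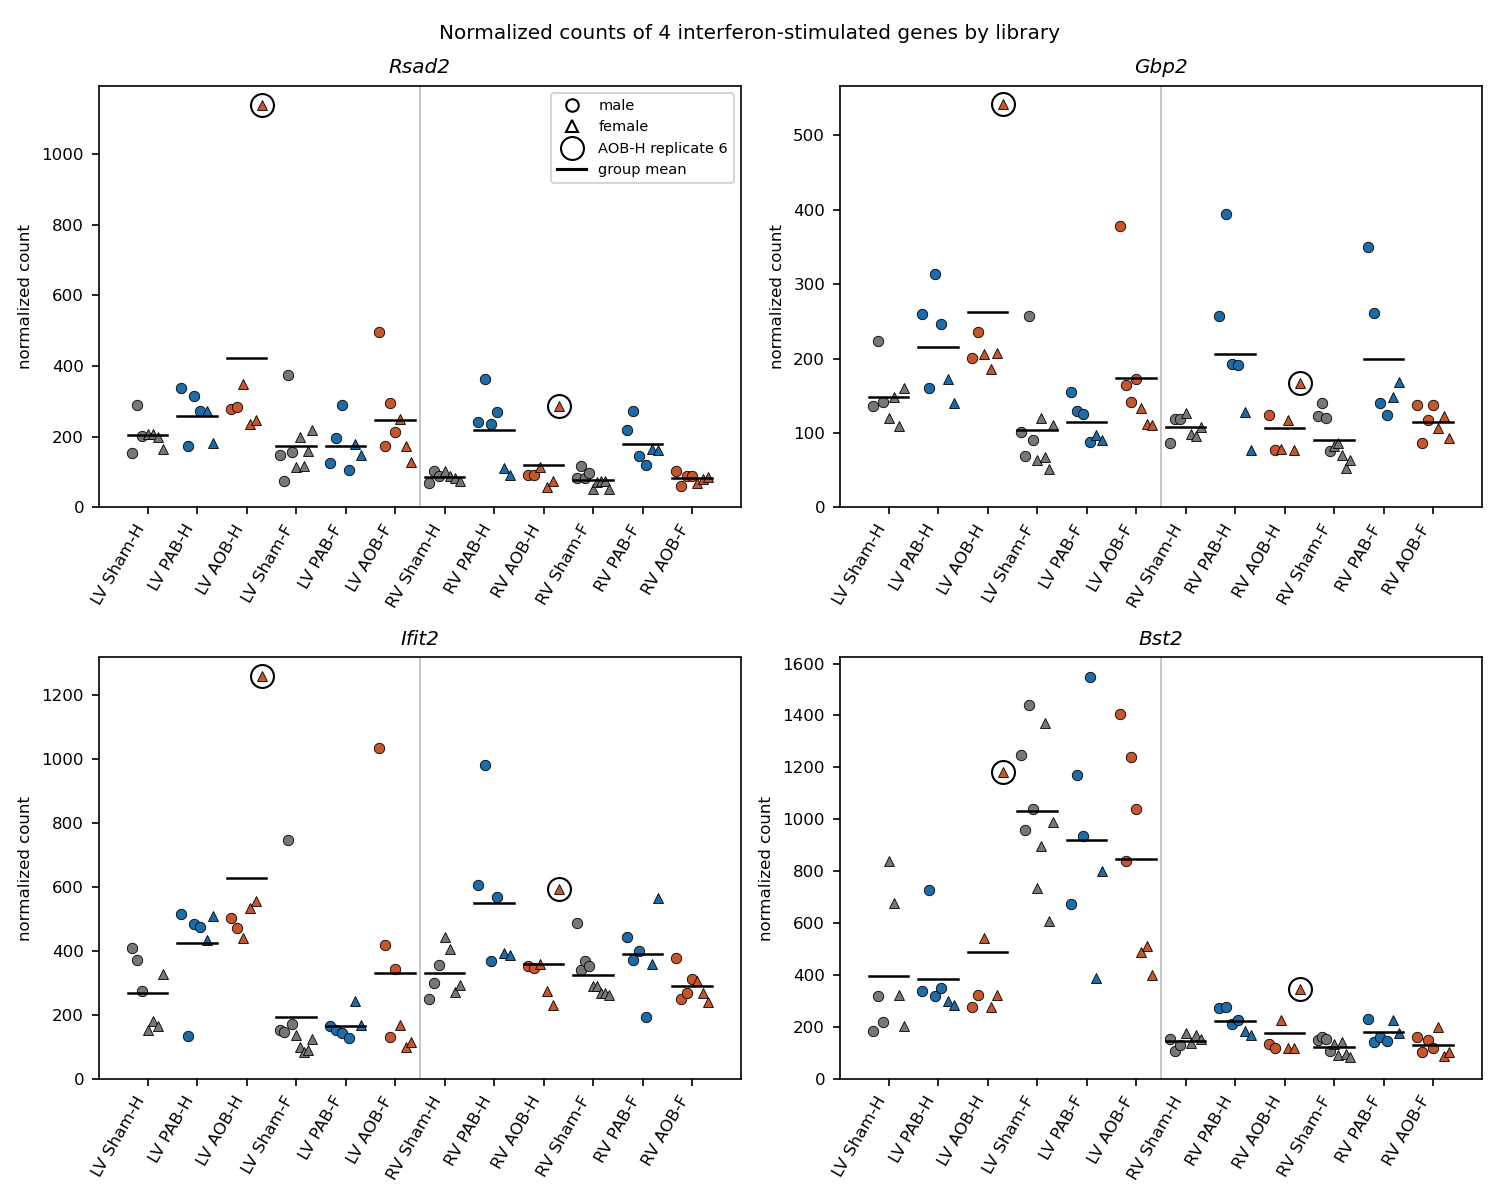
Normalized counts of *Rsad2*, *Gbp2*, *Ifit2* and *Bst2* in every library, by group, with circles for males, triangles for females and bars at group means. *Rsad2* in RV PAB-F (120 to 274) lies wholly above RV Sham-F (50.7 to 117), *Bst2* is higher in LV than in RV sham libraries, and the ringed LV library of AOB-H replicate 6 tops its group for *Rsad2* (1138), *Ifit2* (1257) and *Bst2* (1184).

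In the compensated LV upon AOB the members leaned upward without passing the test. In LV AOB-H, 0 of the 35 members were called against LV Sham-H, as against 0.0167% of all genes. At an unadjusted p under 0.05 there were 17 members, all higher, against 20% of all genes and 11.1% higher, and DESeq2 called 2. The median log2 fold change was 0.37, with 28 of 35 values above 0.

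*Ifit2*, whose protein binds viral RNA, lay at 439, 471, 501, 534, 554 and 1257 normalized counts in LV AOB-H and between 153 and 410 in LV Sham-H (median 275). All the banded libraries lay above all shams, and replicate 6 lay far above the rest. The log2 fold change was 1.22 (standard error 0.36, edgeR adjusted p = 0.0983). *Ifih1* did not overlap either, with 289 to 713 (median 324) against 134 to 283 (median 235), and had a log2 change of 0.83 (standard error 0.22, edgeR adjusted p = 0.0982). That makes 2 members whose groups did not overlap, against 0.46% of all genes.

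*Parp9*, a partner of the ubiquitin ligase *Dtx3l*, ranged from 346 to 1101 (median 433) against 196 to 416 (median 289), a log2 fold change of 0.84 (standard error 0.20, edgeR adjusted p = 0.0912). *Trim21*, a ubiquitin ligase that binds antibody-coated virus, ranged from 116 to 213 (median 135) against 53.3 to 133 (median 75.9), with a log2 change of 0.79 (edgeR adjusted p = 0.0983). The highest value of each was that of replicate 6. Without LV Sham-H replicate 2, 6 members were called, a count given without its share over all genes.

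LV AOB-H replicate 6 was the highest of its group in 31 of the 35 members, and its values were a median of 2.23 times the mean of the other 5 libraries, above that mean in 35 of 35 and over 2 times that mean in 22. *Rsad2* reached 1138 against a mean of 278 (a ratio of 4.09), *Bst2* 1184 against 348 (3.40), *Parp14* 2003 against 636 (3.15) and *Ifi44* 761 against 259 (2.94). The RV library of this animal was also raised, with a median ratio of 1.36, a ratio over 1 in 31 of 35 members and *Rsad2* at 286 against 86.8 (3.29). Its score was 4.26 against 3.49 to 3.84 in the other RV AOB-H libraries. Its endothelial markers summed to 2509 CPM against 811 to 1003 CPM. The part of these cells in the values was not tested.

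Without LV AOB-H replicate 6, 0 members were called (0% of all genes) and 6 had an unadjusted p under 0.05, against 13.7% of all genes. The median log2 fold change was 0.21 and the smallest adjusted p by edgeR 0.327. *Ifit2* averaged 500 ± 46.6 (SD, n = 5) normalized counts, a log2 fold change of 0.90 (standard error 0.37), and its 5 libraries still lay above all shams. *Trim21* stood at a log2 change of 0.66 (standard error 0.22), *Ifih1* at 0.57 (standard error 0.21) and *Parp9* at 0.51 (standard error 0.19). *Rsad2* went from 1.04 with the library to 0.46 without it. In the other comparisons of banded with sham groups the counts without this library were 11 in RV PAB-H, 8 in RV PAB-F, 3 in LV AOB-F (14.5% of all genes) and 0 in the rest.

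**Figure D4:**
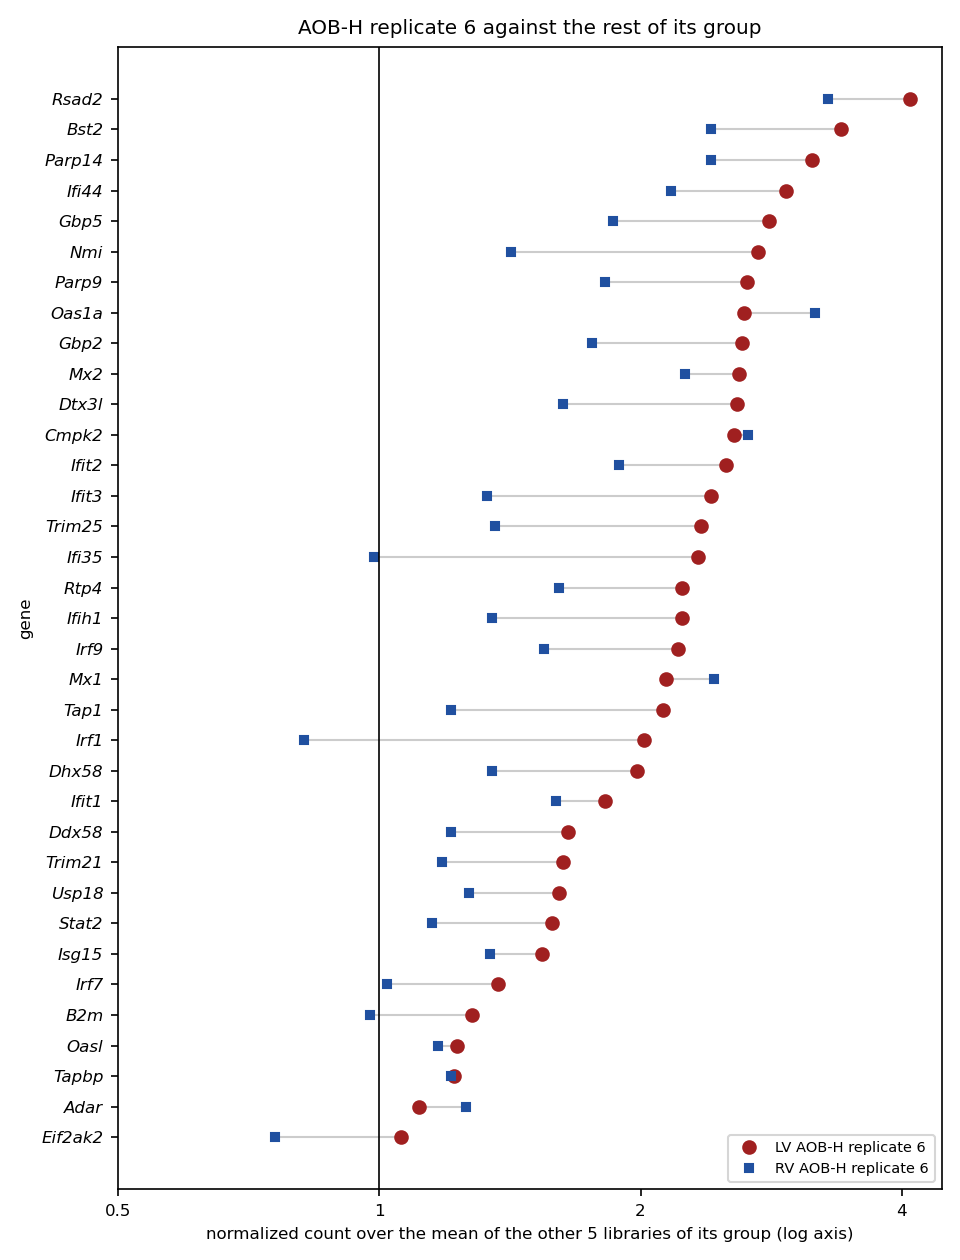
Ratio (log axis) of the normalized count in AOB-H replicate 6 to the mean of the other 5 libraries of its group, for each of the 35 members, in the LV and in the RV. All LV ratios lie above 1 (1.06 to 4.09, median 2.23), and 31 of 35 RV ratios do (median 1.36).

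In the failing LV upon AOB members were called higher at about the share of all genes (8.57% against 8.54%), and the libraries spread widely. In LV AOB-F, 3 of the 35 members rose against LV Sham-F and 0 fell, against 12.9% of all genes called and 8.54% called higher, and the median log2 fold change was 0.08. *B2m* ranged from 2173 to 5250 normalized counts (median 3795) against 2199 to 4555 (median 2627), a log2 fold change of 0.40 (standard error 0.12, edgeR adjusted p = 0.0237). *Gbp2* ranged from 111 to 378 (median 142) against 51.9 to 257 (median 91.2), with a log2 change of 0.74 (standard error 0.26, edgeR adjusted p = 0.0444). *Gbp5*, a GTPase of the same family, ranged from 44.3 to 268 (median 64.9) against 14.7 to 225 (median 39.1), with a log2 change of 0.90 (standard error 0.32, edgeR adjusted p = 0.0495). All 3 overlapped widely, and in 0 of the 35 members did the groups separate, as in 0.0837% of all genes.

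LV AOB-F replicate 1 was the highest of its group in 19 of 35 members and LV Sham-F replicate 3 of its group in 18. The count was 0 without LV AOB-F replicate 1 or LV Sham-F replicate 7, 5 without LV AOB-F replicate 3 and 11 without LV Sham-F replicate 3. It was 1 without LV AOB-F replicate 2 or LV Sham-F replicate 1, 2, 4, 5, 6, 8 or 9. Those counts are given without their share over all genes and show only how the calls depend on a library. Macrophage markers rose in 4 of 9, with sums of 47.5 to 292 against 46.3 to 182 CPM, and their part was not tested.

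In the ventricle remote from the band the members were not called. RV AOB-H and RV AOB-F were compared with the same RV sham libraries as the PAB groups, and LV PAB-H and LV PAB-F with the same LV sham libraries as the AOB groups. In RV AOB-H 0 members were called (0% of all genes) and 0 passed at an unadjusted p under 0.05 (1.43% of all genes). *Rsad2* ranged from 58.9 to 286 normalized counts (median 92.8) against 69.9 to 103 (median 88.0), a log2 fold change of 0.44 (standard error 0.32, edgeR adjusted p = 1). The top value was again the animal of replicate 6, and with both its libraries left out the log2 fold change was -0.01. *Ddx58* (RIG-I) stood at a log2 change of -0.25 and *Isg15*, the ubiquitin-like modifier, at 0.40. In RV AOB-F 0 members were called (0.0669% of all genes), and *Adar*, *Gbp2* and *Trim21* stood at log2 changes of -0.13, 0.34 and -0.24.

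In LV PAB-H 0 members were called (0% of all genes), with 4 at an unadjusted p under 0.05 (2.55% of all genes) and a median log2 fold change of 0.24. Of the 35 values 27 were above 0, and 4 of the 6 libraries had scores above every LV Sham-H score. The smallest p belonged to *Trim21* with a log2 fold change of 0.57 (edgeR adjusted p = 0.991), followed by *Parp9* and *Dtx3l*, both at 0.47. In LV PAB-F 0 members were called (0% of all genes), and *Ifit1*, *Ifi44* and *Cmpk2* stood at log2 changes of 0.38, 0.27 and -0.26 (edgeR adjusted p = 1 for each). The difference between the ventricles in their response was itself tested at failure, but not at the compensated stage. For PAB-F, RV minus LV, 0 members were called (0.351% of all genes), with 8 at an unadjusted p under 0.05 (12.9% of all genes), and *Cmpk2* differed by 1.13 (standard error 0.35, edgeR adjusted p = 0.16) and *Rsad2* by 1.2 (standard error 0.42, edgeR adjusted p = 0.203). With the animal as a block, which removes what both ventricles of an animal share, 2 were called (2.92% of all genes), *Cmpk2* at 1.11 (standard error 0.23, edgeR adjusted p = 0.00567) and *Rsad2* at 1.15 (standard error 0.31, edgeR adjusted p = 0.0296). For AOB-F, LV minus RV, 0 were called (0% of all genes), also with the block (0.00837% of all genes), and 2 had an unadjusted p under 0.05 (9.71% of all genes).

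Between the ventricles of young sham animals most called members were lower in the RV. In RV Sham-H against LV Sham-H 14 members were lower and 1, *Eif2ak2* (PKR, the kinase that halts translation on double-stranded RNA), was higher, against 21% of all genes called, 11.4% lower and 9.62% higher. The median log2 fold change was -0.55 over the members and -0.02 over all genes. *Bst2* lay between 109 and 177 normalized counts in the RV (median 154) and between 183 and 840 in the LV (median 318), without overlap, a log2 fold change of -1.43 (standard error 0.30, edgeR adjusted p = 0.000601). *Cmpk2* lay between 49.5 and 86.4 (median 71.8) and between 100 and 254 (median 186), with a log2 change of -1.26 (standard error 0.26, edgeR adjusted p = 0.000452). *Rsad2* lay between 69.9 and 103 (median 88.0) and between 154 and 291 (median 202), with a log2 change of -1.22 (standard error 0.30, edgeR adjusted p = 0.00339). In these the whole RV group lay below the whole LV group, as in 5 members in all, against 4.59% of all genes.

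*Stat2* lay between 487 and 586 (median 551) against 610 to 962 (median 800), a log2 fold change of -0.51 (standard error 0.12, edgeR adjusted p = 0.00245). *Tapbp*, which holds class I molecules at the peptide transporter, ranged from 671 to 881 (median 763) against 734 to 1912 (median 1114), with a log2 change of -0.60 (edgeR adjusted p = 0.00495). *Oasl* stood at a log2 change of -1.38, the sensor *Dhx58* (LGP2) at -1.19 and *Ifi35* at -0.95. Endothelial markers were lower in the RV as well, 5 of 8 called, with sums of 850 to 1168 against 1187 to 3010 CPM, and 3 of 7 mural markers were lower. LV Sham-H replicate 4 held the 3010 CPM. Without it 4 members were called, namely *Bst2* (-1.11), *Cmpk2*, *Rsad2* and *Stat2*, and without LV Sham-H replicate 5 the count was 9. Both counts are given without their share over all genes. With the animal as a block 1 member was higher and 19 were lower (32.5% of all genes called).

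In the older sham animals the ventricles differed widely over the whole table. In RV Sham-F against LV Sham-F 18 members were lower and 8 higher, 26 of 35, which is the same share as among all genes tested (74.3% called, 38.6% lower and 35.6% higher). The median log2 fold change was -0.57 over the members and -0.07 over all genes. In 14 members the groups did not overlap, against 41.8% of all genes. *Bst2* lay between 85.4 and 160 normalized counts in the RV (median 133) and between 607 and 1440 in the LV (median 990), a log2 fold change of -3.05 (standard error 0.28, edgeR adjusted p = 3.39e-15). *Oas1a*, a synthetase of the oligoadenylates that switch on RNase L, lay between 13.4 and 54.9 (median 32.2) and between 148 and 325 (median 233), with a log2 change of -2.74 (standard error 0.36, edgeR adjusted p = 2.99e-10). For both, the lowest LV library lay far above the highest RV library.

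The class I genes split. *Tap1*, a subunit of the peptide transporter, lay between 146 and 311 (median 201) in the RV and between 573 and 1357 (median 980) in the LV, a log2 fold change of -2.27 (standard error 0.25, edgeR adjusted p = 5.73e-13). *Tapbp* lay between 643 and 771 (median 744) and between 1605 and 2867 (median 2173), with a log2 change of -1.59 (standard error 0.14, edgeR adjusted p = 1.15e-15), while *B2m* was among the 8 members higher in the RV. *Irf7* lay between 285 and 452 (median 384) and between 823 and 1602 (median 1261), with a log2 change of -1.73 (edgeR adjusted p = 4.77e-11), and *Cmpk2* stood at -1.92 and *Ifi35* at -1.78.

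*Eif2ak2* went the other way, with 518 to 735 normalized counts in the RV (median 641) and 98.6 to 388 in the LV (median 123), a log2 fold change of 2.10 (standard error 0.26, edgeR adjusted p = 2.73e-11). *Ifit1*, *Ifit2*, *Ifit3*, *Trim21*, *Ddx58* and *Parp9* were higher in the RV as well. Endothelial markers were lower in the RV in 7 of 8 (719 to 1141 against 1972 to 3655 CPM), macrophage markers in 6 of 9 (16.7 to 48.7 against 46.3 to 182 CPM), fibroblast markers in 5 of 8 and mural markers in 5 of 7, and their part was not tested. The count stayed at 25 to 26 whichever library was left out and was 28 with the animal as a block (77.2% of all genes).

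**Figure D5:**
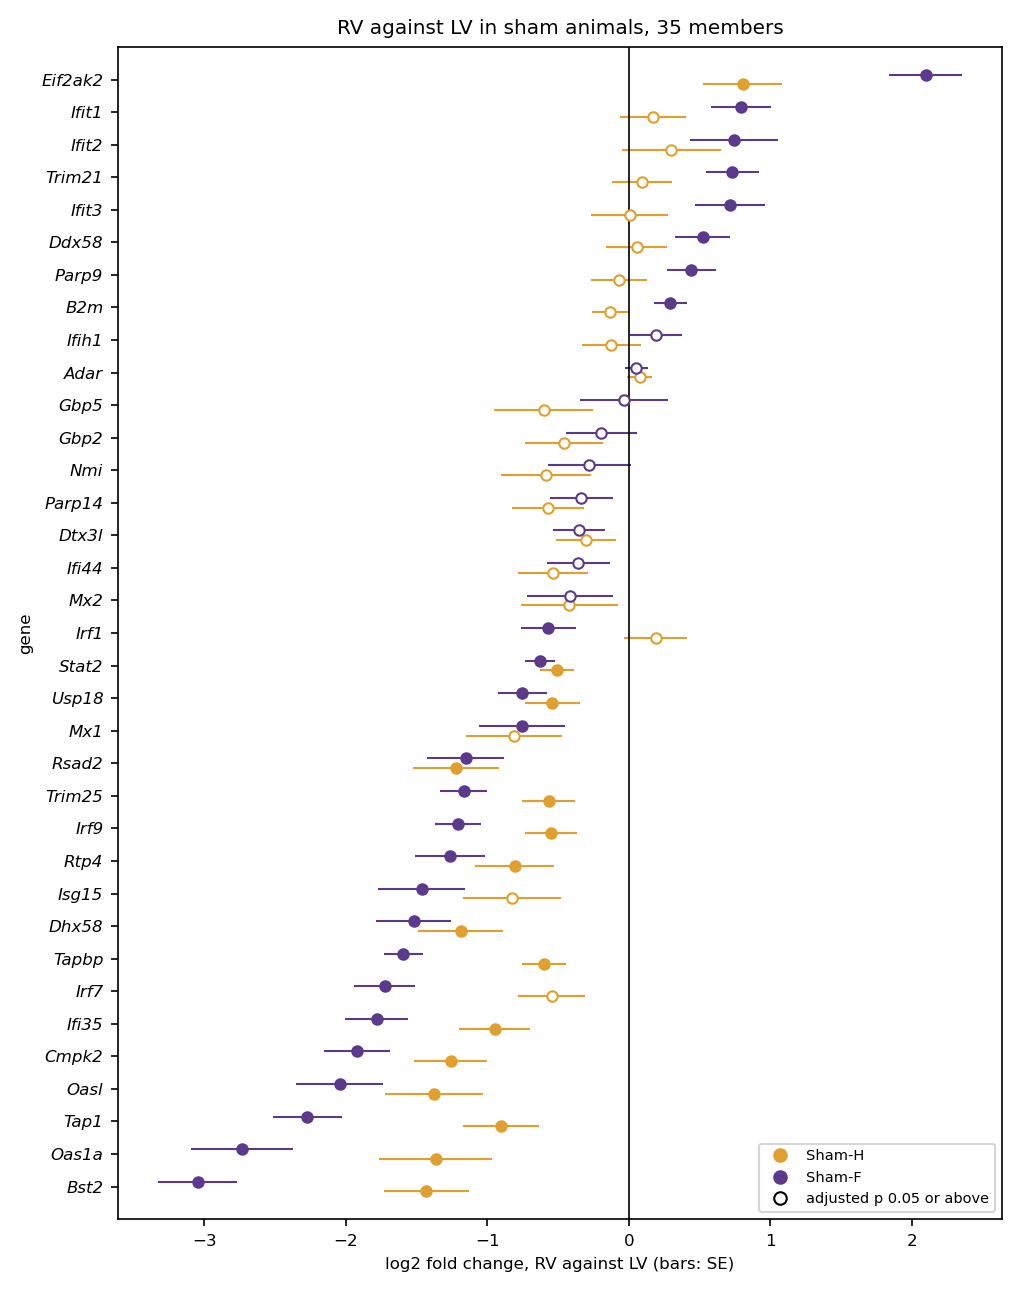
Log2 fold change of RV against LV (points, with standard errors) for the 35 members in Sham-H and in Sham-F animals, with open symbols where the edgeR adjusted p was 0.05 or more. *Bst2* is the lowest in Sham-F at -3.05, and *Eif2ak2* the highest at 2.10.

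With age members were called in the LV at a share below that of all genes. In LV Sham-F against LV Sham-H 9 of 35 members were higher and 7 lower, which is 45.7% against 57.4% of all genes called, and in 0 members did the groups separate (1.68% of all genes). *Tapbp* stood at a log2 change of 0.89 (edgeR adjusted p = 1.73e-06), *Bst2* at 1.38 (edgeR adjusted p = 3.48e-05), *Tap1* at 1.09 and *Oas1a* at 1.21, with *Ifi35* at 0.85 and *Irf7* at 0.79. *Trim25*, a ubiquitin ligase that acts on RIG-I, lay between 1188 and 1742 normalized counts at the later stage (median 1475) and between 650 and 1397 at the earlier one (median 714), with a log2 change of 0.70. *Eif2ak2* lay between 98.6 and 388 (median 123) against 67.8 to 635 (median 434), with a log2 change of -1.23 (edgeR adjusted p = 7.69e-05), and at the earlier stage its LV libraries were widely spread. Markers of other cells rose in the LV too, 6 of 9 for macrophages, 5 of 7 for mural cells and 3 of 8 each for endothelial cells and fibroblasts. The median cardiomyocyte sum was 88928 CPM at the later stage and 127736 CPM at the earlier one. The part of these cells in the LV change, and in its difference from the RV, was not tested. In the RV 0 members were called (0.0502% of all genes) and 0 had an unadjusted p under 0.05 (5.03% of all genes), with *Irf7* at -0.39, *Tap1* at -0.28 and *Adar* at -0.14.

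The difference itself, LV minus RV, was called in 11 members, 9 higher and 2 lower, which is 31.4% against 41.6% of all genes. *Tapbp* differed by 0.99 (edgeR adjusted p = 0.00042), *Bst2* by 1.62, *Tap1* by 1.37, *Oas1a* by 1.37, *Irf7* by 1.18, *Irf1* by 0.76, *Irf9* by 0.66 and *Eif2ak2* by -1.29. The count was 5 without LV Sham-H replicate 1, 6 without LV Sham-H replicate 3 or 7, 7 without LV Sham-H replicate 6, LV Sham-F replicate 6 or RV Sham-H replicate 1 or 5, and 17 without LV Sham-F replicate 3. Changes in the LV followed gene length over the whole table, with a median log2 fold change of 0.20 in the shortest 25% of genes and -0.12 in the longest 25%. The members higher at the later stage had a median length of 1596 bases, the lower ones 2036 and those not called 2917. After a correction for gene length 17 members were called in the LV with age and 28 between the ventricles of Sham-F animals. Like the counts with a library left out, both are given without a share over all genes. They show only how the calls depend on the setting.

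The sexes were unevenly spread over the groups, and contrasts within each sex, taken from a fit with a mean per group and sex in which 36 members were tested, gave different counts. In RV PAB-H the scores of the 4 males were 4.03 to 4.94 and those of the 2 females 3.75 and 3.83, with sham scores of 3.59 to 3.89. Among males 11 of 36 members rose (3.53% of all genes called, median log2 fold change 0.91) and among females 0 (0.0322% of all genes, median 0.021). With RV PAB-H replicate 2 left out, 0 were called among males (0% of all genes), with a median log2 fold change of 0.71. With sex as a covariate over all libraries 1 member was called in RV PAB-H. The difference between the sexes was called in 0 members (0% of all genes), with 11 at an unadjusted p under 0.05 against 4.35% of all genes, and for *Mx1* it was 2.0 (standard error 0.68, edgeR adjusted p = 1). It is thus not shown that the sexes responded differently.

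In LV AOB-H 14 members rose among females (13.7% of all genes), *Ifih1* by 1.19 (edgeR adjusted p = 0.00305) and *Ifit2* by 1.74 (edgeR adjusted p = 0.00521), and 0 among males (0% of all genes). Replicate 6 is 1 of the 4 females. Without both its libraries 0 were called among the females (0.0242% of all genes), the smallest adjusted p by edgeR being 0.0804 for *Ifih1* with a log2 fold change of 0.82. In LV AOB-F females showed *B2m* higher by 0.69 (edgeR adjusted p = 0.00191) and 8 members lower, 9 of 36 in all. In total that is the share over all genes (25.2% called), but not by direction, as 15.1% of all genes were called higher. Among the lower members were *Irf7* at -1.25 (edgeR adjusted p = 0.000761), *Oas1a* at -1.57, *Oasl* at -1.27 and *Isg15* at -1.17. Among males 0 were called (0% of all genes). The median log2 fold change of the members was -0.295 in females and 0.279 in males. The LV AOB-F scores were 4.13 to 5.04 in the 4 males and 3.50 to 4.02 in the 3 females. Of these females, replicates 6 and 7 held the lowest cardiomyocyte sums of all libraries, 53924 and 57693 CPM. Replicate 5 held 97086 CPM and the males 77247 to 105768 CPM. The macrophage sums were 234 and 248 CPM in replicates 6 and 7, 47.5 CPM in replicate 5 and 124 to 292 CPM in males. Their sums of 4 neutrophil markers, 5.74 and 8.09 CPM in replicates 6 and 7, were the highest of all libraries. The part of these cells was not tested. The male minus female difference was called in 0 members there too (3.26% of all genes), with 13 at an unadjusted p under 0.05 (19% of all genes).

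Within groups the members varied together. Over the deviations of the 82 libraries from their group means, the median correlation between a pair of members was 0.40, or 0.35 without both AOB-H replicate 6 libraries, and 26 members had r over 0.5 with the mean of the others. *Mx1* (0.86), *Ifi44* (0.83), *Mx2* (0.83) and *Dtx3l* (0.83) followed the others most closely. *Eif2ak2* (0.15), *Adar* (-0.08) and *Ifit1* (-0.10) did not follow them. The libraries share depth, cell makeup, sex and animal, which this measure does not separate.

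The 2 ventricles of an animal also deviated together. The RV and LV scores of the 41 animals, as deviations from their group means, had r = 0.60, and 0.53 in the 40 animals without AOB-H replicate 6. These means are over both sexes, so sex, which both ventricles of an animal share, is not separated here. Over single members the median r was 0.43, against 0.26 over all genes tested. Without AOB-H replicate 6 these medians were 0.382 and 0.215. *Usp18*, which removes ISG15 from proteins and dampens the type I receptor, reached 0.81, *Irf7* 0.68 and *Dhx58* 0.67, while *Trim21* (-0.11) and *Eif2ak2* (-0.24) showed no such relation.

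Of the pathway around the members, 5 of 9 listed ligands were matched in the table. Totals over all 82 libraries were 3 counts for *Ifnb1*, 10 for *Ifna1*, 25 for *Ifna4* and 35 for *Ifng*, so changes of these 4 were not detectable at this depth. The ligand *Ifnk* was the 1 tested, at group means of 4.02 to 12.4 normalized counts, and was called in 0 comparisons, with a log2 change of 1.18 in RV PAB-F (edgeR adjusted p = 0.109). Of 34 tested genes for ligands, receptors, kinases, other regulatory factors, adaptors and inhibitors, 3 were higher in RV PAB-F (7.66% of all genes were), about the share over all genes. They were the receptor kinase *Tyk2* at 0.41 (edgeR adjusted p = 0.0259), the kinase *Ikbke* at 0.93 (edgeR adjusted p = 0.0414) and *Tmem173* (STING) at 0.88 (edgeR adjusted p = 0.0473). In LV AOB-F 6 were higher (8.54% of all genes were), led by the phosphatase *Ptpn2* at 0.91 (edgeR adjusted p = 0.000436), the kinase *Jak2* at 0.90 (edgeR adjusted p = 0.000928), *Stat3* at 0.57, the receptor *Ifnar1* at 0.35 and the adaptor *Traf3* at 0.38, and 0 were called in LV AOB-H.

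Between the ventricles 3 of the 34 were higher and 4 lower in the RV of Sham-H animals, a share like that of all genes called (21%), and 9 were higher and 14 lower in that of Sham-F animals, a share below that of all genes (74.3%). With age 11 were higher and 9 lower in the LV, again about the share of all genes (57.4%), and 0 were called in the RV. The difference, LV minus RV, was called in 11, with 5 higher and 6 lower (41.6% of all genes). In RV against LV of Sham-F animals *Tmem173* stood at a log2 change of -2.44, *Tyk2* at -0.93, *Ptpn2* at 1.34, *Pias1* at 1.27 and *Tbk1* at 1.23. A further list of 42 tested interferon-inducible genes outside the 40 had 3 higher and 0 lower in RV PAB-H (3.91% of all genes higher, median log2 fold change 0.57), 8 higher and 0 lower in RV PAB-F (7.66% of all genes higher, median 0.54), 1 higher in LV AOB-F (8.54% of all genes higher), and 1 higher and 20 lower in RV against LV of Sham-H animals (11.4% of all genes lower, median -0.61).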

How the data were processed

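The authors deposited 1 table with raw counts per gene for each library, next to normalized counts (a signal value, the counts divided by DESeq2 size factors) and FPKM values. Reads were trimmed with Trim Galore, aligned with STAR to the rat genome and counted per gene with featureCounts by the authors, per the labels and the methods. Strandedness is not given in the sources used here.

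All tests used the raw counts. The deposited FPKM values gave levels per length only, and the deposited normalized counts entered no value. edgeR 4.0.16 (R 4.3.3) fitted 1 quasi-likelihood model to the 82 libraries with 12 group means, TMM factors and genes kept by filterByExpr, and two-sided contrasts were adjusted by Benjamini-Hochberg over the 11954 genes tested. Normalized counts printed here are raw counts over the TMM effective library size, times its mean (13279120). The score is the members' mean log2 CPM (prior count 2). The common biological coefficient of variation was 0.244. No 2 libraries were copies (smallest chi-square per gene 4.04), and the functions were tested on simulated data.

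The members, the marker and pathway lists and the contrasts were chosen with earlier results of these data known. The text names, per comparison, up to 8 called members by smallest p, or the 3 with the smallest p where fewer than 3 were called, always *Ifit2* in LV AOB-H, and up to 5 called pathway genes; some members are named besides for their level, their role or their rank in a single library, and these were chosen after their values were seen. The pathway genes' result in RV PAB-H is not reported here.

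The labels tie the RV and LV library of a number to a single animal. Within conditions the paired deviations from group means had a median r of 0.186 to 0.297, so blocked fits by animal are given as well. Numbers shared across conditions mark different animals. Alternatives were DESeq2's size factors, no filter, the study's criteria, DESeq2 1.42.0, sex as a covariate, fits to 2 groups, blocks, each library left out and, added after the data were seen, a gene length correction, contrasts within sex and omission of both AOB-H replicate 6 libraries. Promoters are RefSeq's (build GRCr8), with no coordinates of the authors' build.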

Additional observations from a re-analysis of the deposited data

Results flagged for a closer look

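Within groups of 4 to 10 libraries, a library was picked out where its gap to the nearest other exceeded Dixon's 95% critical value. Chance picks out about 1 in 20 groups where the values are normally distributed. Of the 12 groups' scores 1 was picked out, LV AOB-H replicate 6 at 5.43. Of 95 combinations of a named member and a group 19 were picked out, and several came from the same libraries. Those were counts without a logarithm, of members named mostly for their small p, so the rate of 1 in 20 does not apply to them.

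Among normalized counts, LV AOB-H replicate 6 was the high extreme for *Ifit2* (1257), *Parp9* (1101), *Ifih1* (713) and *Trim21* (213), and its RV partner for *Rsad2* (286). RV PAB-H replicate 2 was the high extreme for *Parp14* (1151) and *Mx1* (531). LV Sham-F replicate 3 was the high extreme for *B2m* (4555), *Cmpk2* (430), *Eif2ak2* (388), *Gbp2* (257) and *Gbp5* (225), and LV AOB-F replicate 1 for *Gbp2* (378) and *Gbp5* (268). Single extremes were *Adar* in RV AOB-F replicate 4 (2159), *Ifi44* in LV PAB-F replicate 3 (284), *Rsad2* in LV Sham-H replicate 2 (291), *Oasl* in LV Sham-H replicate 4 (211) and, as the lowest of its group, *Trim21* in LV PAB-H replicate 2 (71.9).

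The change with age differed between the ventricles in 11 members by the test of the difference itself (edgeR, Benjamini-Hochberg adjusted p under 0.05), against 41.6% of all genes tested.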

How the results depend on the processing

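The counts of called members were recomputed under each alternative. Where no share over all genes stands beside a count, here or above, the count shows only how the calls depend on the setting. In RV PAB-H (7) the count was 3 with no filter on low counts, 3 by the study's criteria, 1 with sex as a covariate, 17 in a fit to the 2 groups, 4 after gene length correction, 11 in males only, 0 in females only, 0 in males without RV PAB-H replicate 2 and 12 with both AOB-H replicate 6 libraries left out. In RV PAB-F (5) it was 3 with no filter, 2 by the study's criteria and 14 in a fit to the 2 groups. The RV PAB-F count was 0 in males only (2.33% of all genes) and 0 in females only (0.708% of all genes). With both AOB-H replicate 6 libraries left out it was 8. In LV AOB-H (0) it was 2 by the study's criteria, 2 by DESeq2 and 14 in females only. In LV AOB-F (3) it was 1 with no filter, 0 by the study's criteria, 0 in a fit to the 2 groups, 0 in males only and 9 in females only.

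The study's criteria gave 6 between the ventricles in Sham-H (15), 15 in Sham-F (26), 4 with age in the LV (16), 4 for its difference from the RV (11) and 2 for PAB-F, RV minus LV (0). Between the ventricles in Sham-H males only gave 0 (0.137% of all genes) and females only 16 (30.1% of all genes). With age in the LV males only gave 16 (55.3% of all genes) and females only 5 (23.7% of all genes). With the replicate number as a block, the count was 12 in RV PAB-F, 0 in LV AOB-F and 9 with age in the LV. Different animals share such a number, but it also follows sex. In the Sham-F, AOB-F and PAB-F groups replicates 1 to 4 were males and the later ones females. With the animal as a block, PAB-F, RV minus LV gave 2, and the block changed no other count by over 1.5 times. The cause was not tested.

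With 1 library left out the counts ran from 0 to 16 in RV PAB-H, 2 to 8 in RV PAB-F, 0 to 6 in LV AOB-H, 0 to 11 in LV AOB-F, 4 to 18 and 25 to 26 between the ventricles in Sham-H and Sham-F, 14 to 21 with age in the LV, 5 to 17 for its difference from the RV, 0 to 1 for AOB-F, LV minus RV, and stayed at 0 elsewhere. Of 929 values of single members under the alternatives 5 changed sign, *Mx1* (-0.043), *Rtp4* (-0.138), *Gbp2* (-0.063) and *Ifih1* (-0.048) in RV PAB-H in females only, and *Rsad2* in RV AOB-H (-0.011) with both AOB-H replicate 6 libraries left out, and 113 lost their call.

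Low members such as *Zbp1* and the interferon genes are limited by depth. Markers of other cells moved with several groups, and their part was not tested. PAB-F animals were 28 and Sham-F animals 31 weeks old, so age and banding cannot be told apart there.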
